A study of Mus musculus with 28 samples.

Results

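Transcripts of 8 structural myelin protein genes were followed through demyelination and remyelination of the mouse brain. They are Mbp, Mobp, Mal, Pllp, Mag, Mog, Cldn11 and Cnp, matched by Ensembl gene identifier to the 55414 genes listed for each library. They were chosen by name, with earlier results of these data known. All 8 passed the filter on low counts and were tested with 12423 genes in all. Whole-brain RNA was measured in 28 libraries by QuantSeq, a 3′ tag method in which each transcript gives a tag near its polyadenylated end, so that counts are not scaled by transcript length.

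The mice were made to lose myelin with cuprizone, a copper chelator that kills oligodendrocytes and whose withdrawal lets myelin form again. There were 7 libraries in each of 4 groups. The demyelination group, coded CPZ5, stood at the peak of myelin loss, and the naive group, coded CPZ0, is its reference before cuprizone. The knockout remyelination group, coded CPZ6+1, was of the genotype Cx3cr1-CreER.Tnfr1ff. It carried floxed alleles of the TNF receptor TNFR1 and a tamoxifen-inducible Cre driven from Cx3cr1, a gene of microglia that other macrophages also express, and tamoxifen was given as a therapy to delete TNFR1. The remyelination group, also coded CPZ6+1, is its control. The demyelination, naive and remyelination groups were TNFR1ff mice on a C57BL/6 background, so every group carried the floxed alleles. The unit of the cuprizone codes, the age of the mice, and whether the TNFR1ff groups received tamoxifen are not given in the labels. The labels speak of samples and do not name animals, so p-values measure the spread between these samples, which may be partly technical.

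Library totals ranged from 1522919 to 3137252 counts, so that 3 counts, taken as the floor of detection, correspond to 0.956 to 1.97 CPM, counts as scaled by the size of each library. Naive library 1 and knockout library 1 stood apart from their groups. Genes without a symbol held 25.61% of the counts of naive library 1 and 1.39% of those of knockout library 1, against 5.75 to 17.18% in the other 26 libraries. Nearly all of this was 1 gene, ENSMUSG00000119584.1, with 25.54% of naive library 1 and 5.68 to 17.12% of the other 26. It was not the most abundant gene of knockout library 1. The targeted gene, Tnfrsf1a, had 22.1 ± 4.22 CPM in knockout and 23.2 ± 4.47 CPM in control remyelination libraries (SD, n = 7 each). Since 3′ tags may come from beyond the floxed exons, these values neither check nor contradict the deletion.

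Myelin is the membrane that oligodendrocytes wrap around axons. In its compact part the membranes are pressed together, and the basic protein encoded by Mbp holds their cytoplasmic faces to each other. Mobp encodes another small protein of the cytoplasmic face, while Mal and Pllp (plasmolipin) encode proteolipids that span the membrane. The products of Mag and Mog are surface proteins of the immunoglobulin family, with MAG at the inner border that faces the axon and MOG on the outermost layer. Cldn11 encodes the claudin of the tight junctions within the sheath, and Cnp a cyclic nucleotide phosphodiesterase of the channels that stay open and are not compacted. SOX10 and MYRF are transcription factors that drive many of these genes in oligodendrocytes.

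The bases before the start sites of 5 members are shown as examples whose windows differ in their matches to the core motifs of these factors. The choice does not follow the changes in level. Cldn11 was called in the same directions as these 5, and its window is not printed. They are the 250 bases upstream of the first listed start in RefSeq on GRCm38.p6, which is not the build of the authors' tables (GRCm39), read 5′ to 3′ along the gene. The windows are chr9:120149492-120149741 (+ strand) for Mobp, chr2:127656696-127656945 (- strand) for Mal, chr7:30914864-30915113 (- strand) for Mag, chr17:37023399-37023648 (- strand) for Mog and chr11:100574689-100574938 (+ strand) for Cnp. Capitals mark the SOX core ACAAAG and the MYRF core, which is CTGGCAC or, with a base changed, CTGGTAC. A copy on the opposite strand appears as its reverse complement.
Mobp: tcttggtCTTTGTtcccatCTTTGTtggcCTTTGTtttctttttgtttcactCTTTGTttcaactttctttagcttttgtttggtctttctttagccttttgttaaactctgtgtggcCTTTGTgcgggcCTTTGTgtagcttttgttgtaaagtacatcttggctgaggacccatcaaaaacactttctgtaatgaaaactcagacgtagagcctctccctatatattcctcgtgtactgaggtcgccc
Mal: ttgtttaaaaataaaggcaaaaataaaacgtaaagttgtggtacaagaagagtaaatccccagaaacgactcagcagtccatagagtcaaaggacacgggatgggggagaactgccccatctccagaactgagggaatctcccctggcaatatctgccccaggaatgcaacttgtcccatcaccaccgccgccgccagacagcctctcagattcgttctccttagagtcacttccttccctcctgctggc
Mag: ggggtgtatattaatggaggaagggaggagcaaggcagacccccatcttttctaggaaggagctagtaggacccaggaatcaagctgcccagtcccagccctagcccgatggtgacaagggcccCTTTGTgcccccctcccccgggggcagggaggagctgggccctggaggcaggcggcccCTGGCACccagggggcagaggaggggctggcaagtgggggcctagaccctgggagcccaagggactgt
Mog: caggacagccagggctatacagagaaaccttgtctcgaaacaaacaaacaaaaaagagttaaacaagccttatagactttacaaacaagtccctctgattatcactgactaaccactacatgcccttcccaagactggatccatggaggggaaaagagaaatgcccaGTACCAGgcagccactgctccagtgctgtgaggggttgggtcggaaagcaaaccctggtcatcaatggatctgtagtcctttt
Cnp: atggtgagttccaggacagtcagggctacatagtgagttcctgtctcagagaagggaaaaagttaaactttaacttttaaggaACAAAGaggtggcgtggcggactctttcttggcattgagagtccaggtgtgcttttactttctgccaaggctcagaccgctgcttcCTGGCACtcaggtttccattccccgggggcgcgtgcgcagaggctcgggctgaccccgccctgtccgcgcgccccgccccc

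RefSeq promoter entries were matched for 7 of the 8 members, all but Mbp, and the first entry of each was counted. It was searched on both strands over 300 bases, 250 before to 50 after the start. The SOX core was found in 3 of the 7 (Mobp, Mag and Cnp), and 18.7% of 32851 promoters of the same length held it. Mobp held 6 copies. The MYRF core was found in 3 of the 7 (Mog, Mag and Cnp), against 7.1% of all promoters. Mag has 3 entries, and the third held neither core. The windows of Mal, Cldn11 and Pllp held neither core, and those of Cldn11 and Pllp are not printed above. GC boxes (GGGCGG, in 35.7% of all promoters) were found in Cnp, Cldn11 and Pllp, with 3 in Pllp. Neither the E-box CAGCTG (16.3% of all promoters) nor the TATA box TATAAA (13.6%) was found in the 7. The listed motifs share no overlapping letters in these windows. A match describes these letters and is not evidence of binding.

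At the peak of demyelination, 7 of the 8 members were lower than in naive brain by the edgeR quasi-likelihood test, at an adjusted p below 0.05 (Benjamini-Hochberg, over all genes tested). In this comparison 0.700% of the genes tested were called lower and 1.30% higher. Because the members were chosen with earlier results of these data known, such shares, here and below, are a setting and not an independent test. The median log2 fold change was −1.12 over the 8 members and −0.01 over all genes tested. Together the 8 took 0.191 to 0.231% of all counts in demyelination libraries and 0.303 to 0.482% in naive libraries. The lowest naive share was that of naive library 1, and the other naive libraries held 0.41 to 0.482%. In whole-brain RNA, fewer oligodendrocytes and less RNA per oligodendrocyte cannot be told apart.

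Among the compact myelin genes, Mal (ENSMUSG00000027375.15) fell furthest. Its lowest, median and highest values were 46.5, 63.2 and 94.1 CPM in demyelination libraries and 234, 274 and 314 CPM in naive libraries. The groups did not overlap, and the highest demyelination library lay far below the lowest naive one. The log2 fold change was −2.01 (SE 0.114, edgeR adjusted p = 1.78e-16), which left 24.9% of the naive mean. No gene tested had a smaller p in this comparison, and only 1 had a more negative fold change.

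Mobp (ENSMUSG00000032517.17) had 121, 143 and 204 CPM as its lowest, median and highest values in demyelination libraries, against 335, 385 and 417 CPM in naive libraries. It fell by 1.29 on the log2 scale (SE 0.107, edgeR adjusted p = 8.45e-12), to 40.9% of the naive mean. Mbp (ENSMUSG00000041607.18) had 1408, 1581 and 1767 CPM in demyelination and 2424, 3051 and 3464 CPM in naive libraries. A 3′ tag may not tell its splice forms apart. Both genes were lower in every demyelination library than in any naive one. The decrease of Mbp was smaller, with a log2 fold change of −0.94 (SE 0.0962, edgeR adjusted p = 2e-09) that left 52.0% of the naive mean.

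Pllp (ENSMUSG00000031775.6) is the member that did not pass. It had 11.1, 12.3 and 19.2 CPM in demyelination libraries and 8.73, 16.0 and 17.9 CPM in naive libraries, which overlap over nearly their whole ranges. The log2 fold change was −0.11, with a 95% confidence interval from −0.52 to 0.31 (edgeR adjusted p = 0.876). It was the least abundant member, with 18 to 87 counts per library. Its interval does not reach the fold changes of Mal, Mobp or Mbp, but it includes that of Cnp (−0.45).

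Transcripts of both surface proteins of the immunoglobulin family fell. Mag (ENSMUSG00000036634.16) had 58.4, 97.2 and 136 CPM in demyelination and 174, 220.3 and 290.4 CPM in naive libraries, with a log2 fold change of −1.13 (SE 0.187, edgeR adjusted p = 9.48e-05). Mog (ENSMUSG00000076439.13) had 27.2, 31.8 and 46.1 CPM in demyelination and 64.0, 73.3 and 92.0 CPM in naive libraries, with a log2 fold change of −1.11 (SE 0.133, edgeR adjusted p = 9.58e-08). Neither gene's groups overlapped. Mag kept 46.0% and Mog 46.3% of the naive mean.

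The tight junction gene Cldn11 (ENSMUSG00000037625.8) had 46.5, 60.8 and 84.9 CPM in demyelination and 126, 145 and 195 CPM in naive libraries, again without overlap. It fell by 1.26 on the log2 scale (SE 0.123, edgeR adjusted p = 8.54e-10), to 41.6% of the naive mean. Cnp (ENSMUSG00000006782.17) had 61.1, 78.6 and 116 CPM in demyelination and 93.9, 117 and 134 CPM in naive libraries. Of its demyelination libraries, 6 lay below every naive one and 1 lay among them. Its decrease was the smallest of the 7 that passed, at −0.45 (SE 0.116, edgeR adjusted p = 0.025), which left 73.1% of the naive mean. Without naive library 1 and knockout library 1 the adjusted p was 0.0538, and leaving out naive library 1 alone, naive library 3, or demyelination library 1, 2 or 7 also took it past the threshold. In all, 6 of the 8 members had groups that did not overlap, and 0.467% of the genes tested were lower without overlap.

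**Figure D1:**
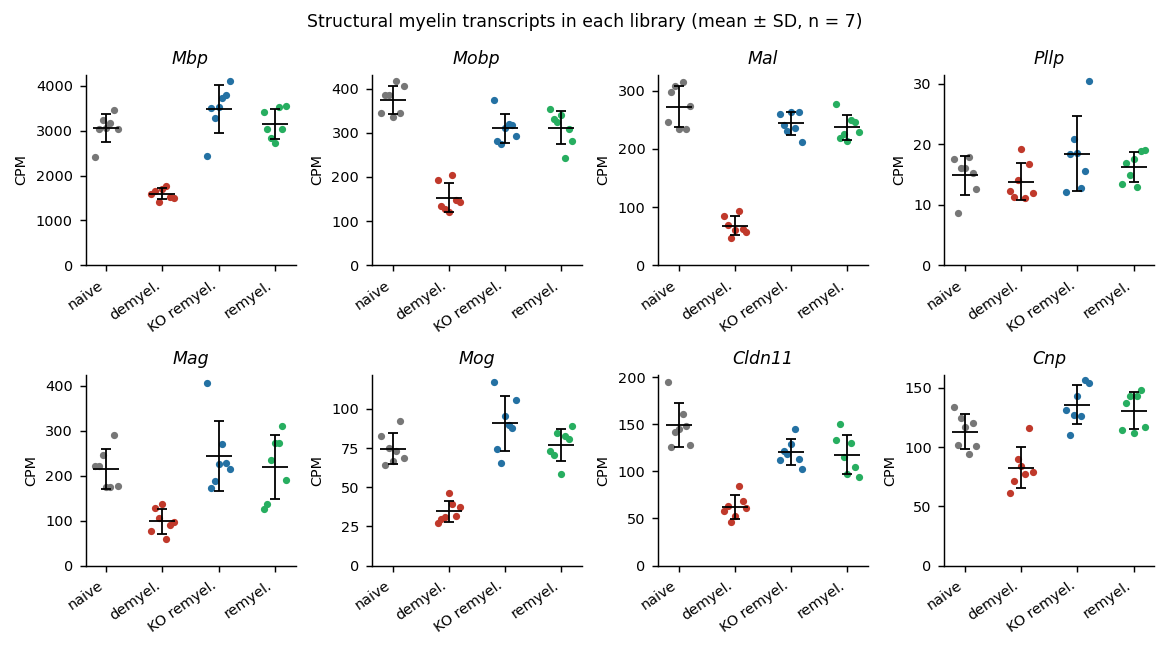
CPM of each structural myelin gene (vertical axis, starting at 0) in every library of the naive, demyelination, knockout (KO) remyelination and remyelination groups, with bars for mean ± SD over 7 libraries. Demyelination libraries lie below all naive ones for Mbp, Mobp, Mal, Mag, Mog and Cldn11, while the Pllp groups overlap.

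Within a library, the ratio of 2 members does not depend on how the library is scaled. The ratio of each of the other 7 members to Mbp was compared between groups as the mean log2 ratio of counts plus 0.5, by a two-sided exact permutation test over libraries. With 7 ratios in 4 comparisons this made 28 tests, whose p-values are not adjusted, and the smallest p that 3432 regroupings can give is 0.000583. Mal and Pllp lay at the opposite ends. For every 100 Mbp counts there were 4.19 Mal counts in demyelination and 8.90 in naive libraries, a difference of −1.09 on the log2 scale (exact p = 0.000583, the smallest possible) with no overlap. Pllp ran the other way, with 0.867 counts per 100 of Mbp in demyelination and 0.485 in naive libraries (difference +0.84, exact permutation p = 0.00175).

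Cnp was also higher relative to Mbp, at 5.13 per 100 in demyelination and 3.70 in naive libraries (difference +0.47, exact permutation p = 0.0152). Mobp was lower, at 9.48 against 12.3 (difference −0.37, exact permutation p = 0.0111), and so was Cldn11, at 3.86 against 4.86 (difference −0.33, exact permutation p = 0.0326). Without naive library 1 the Cldn11 difference was −0.21 (exact permutation p = 0.067), and leaving out naive library 5 or demyelination library 1, 2, 3 or 4 also took the p above 0.05 (exact permutation p = 0.0554 to 0.0758). For Mog the difference from Mbp was −0.18 (exact permutation p = 0.195), and for Mag it was −0.21 (exact permutation p = 0.347). Naive library 1, with the lowest Mbp value of its group, had the highest of the naive values in all 7 ratios.

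**Figure D2:**
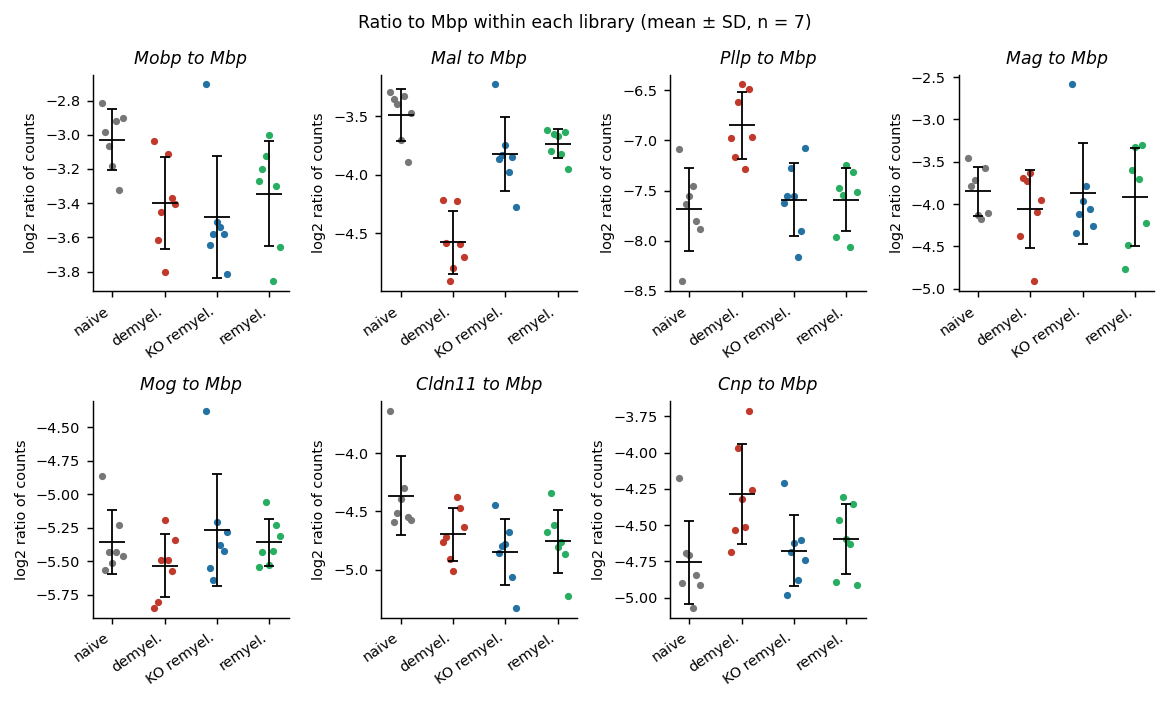
Log2 ratio of the counts of each of the other 7 members to Mbp (vertical axis, each panel with its own range) in every library by group, with bars for mean ± SD over 7 libraries. The demyelination libraries stand lowest for Mal and highest on average for Pllp and Cnp, and knockout remyelination library 1 stands highest in its group for 6 of the 7 ratios.

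In remyelination 7 of the 8 members were higher than at the peak of demyelination by the edgeR test, where 0.201% of the genes tested were called higher and 0.185% lower. As coded, CPZ6+1 against CPZ5, the groups differ in the length of cuprizone as well as in its withdrawal, which cannot be told apart here. The median log2 fold change was 1.01 over the members and 0 over all genes tested. Mal had the largest increase of the members and the smallest p of all genes tested in this comparison. Its lowest, median and highest values were 213, 229 and 277 CPM in remyelination libraries, against 46.5, 63.2 and 94.1 CPM in demyelination libraries, a log2 fold change of 1.80 (SE 0.114, edgeR adjusted p = 7.02e-15). The groups did not overlap.

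The surface protein genes followed. Mog had 58.7, 80.9 and 88.8 CPM in remyelination libraries, all above the demyelination ones, with a log2 fold change of 1.16 (SE 0.132, edgeR adjusted p = 2.01e-07). Mag had 125, 234 and 309.8 CPM in remyelination libraries, 5 of which lay above every demyelination library and 2 among them, with a log2 fold change of 1.15 (SE 0.187, edgeR adjusted p = 0.00022). Its spread over remyelination libraries was wide, at 219.7 ± 71.5 CPM (SD, n = 7).

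For the compact myelin genes Mobp and Mbp the increases were 1.02 (SE 0.106, edgeR adjusted p = 1.95e-08) and 0.99 (SE 0.0962, edgeR adjusted p = 4.56e-09). Remyelination libraries held 244, 325 and 353 CPM of Mobp and 2718, 3047 and 3543 CPM of Mbp, above all demyelination libraries in both cases. Cldn11 had 94.5, 115 and 149.8 CPM in remyelination libraries, also without overlap, and rose by 0.93 (SE 0.123, edgeR adjusted p = 6.39e-06). Cnp had 112, 137 and 149 CPM in remyelination libraries and rose by 0.66 (SE 0.114, edgeR adjusted p = 0.00063), with 5 libraries above every demyelination one. Pllp had 13.0, 16.9 and 19.1 CPM, within the range of the demyelination libraries, and a log2 fold change of 0.23 with an interval from −0.17 to 0.64 (edgeR adjusted p = 0.931). Groups did not overlap for 5 of the 8 members, and 0.153% of the genes tested were higher without overlap.

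Relative to Mbp, 2 members changed between these stages. Mal had 7.51 counts per 100 of Mbp in remyelination and 4.19 in demyelination libraries, with no overlap (difference +0.84, exact permutation p = 0.000583). Pllp had 0.519 in remyelination and 0.867 in demyelination libraries (difference −0.74, exact permutation p = 0.00117). The other 5 ratios had exact permutation p-values from 0.0769 for Cnp to 0.719 for Mobp.

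Set against naive brain, remyelination libraries had no member past the edgeR threshold, with 0.451% of the genes tested called higher and 0.177% lower. At an unadjusted p below 0.05 there were 2 of the 8, where 10.4% of the genes tested had such a p, and DESeq2 called 0. These 2 were Cldn11, with a log2 fold change of −0.33 (interval −0.57 to −0.09, edgeR adjusted p = 0.242), and Mobp, at −0.27 (interval −0.47 to −0.06, edgeR adjusted p = 0.3). The mean of Cldn11 in remyelination libraries was 78.9% of the naive mean, that of Mobp 83.3% and that of Mal 86.8% (log2 fold change −0.20, interval −0.42 to 0.01). Mbp, Mog and Mag stood at 103, 103 and 102% of the naive mean, and Cnp at 116% (log2 fold change 0.21, interval −0.01 to 0.44). A missed threshold does not show that the levels were the same.

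Measured against Mbp in the same library, 3 members had an unadjusted p below 0.05 between remyelination and naive brain, all lower in remyelination, and of them only Cldn11 kept it with each library left out in turn. Cldn11 had 3.70 counts per 100 of Mbp in remyelination and 4.86 in naive libraries (difference −0.39, exact permutation p = 0.0157). Mobp had 9.85 in remyelination and 12.3 in naive libraries (difference −0.32, exact permutation p = 0.0303), and Mal 7.51 against 8.90 (difference −0.24, exact permutation p = 0.0274). The p for Mobp was above 0.05 without naive library 1, 2, 5 or 7 or remyelination library 5 or 7, and that for Mal without naive library 1, 2 or 5 or remyelination library 2, 5 or 7. Without naive library 1, which stood apart, the difference was −0.28 for Mobp (exact permutation p = 0.0682), −0.21 for Mal (exact permutation p = 0.0554) and 0.26 for Cnp (exact permutation p = 0.0414). The same comparison gave −0.06 for Mag (exact permutation p = 0.8), 0.16 for Cnp (exact permutation p = 0.264) and 0.10 for Pllp (exact permutation p = 0.625), and the Mog ratio was 2.44 per 100 in both groups.

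**Figure D3:**
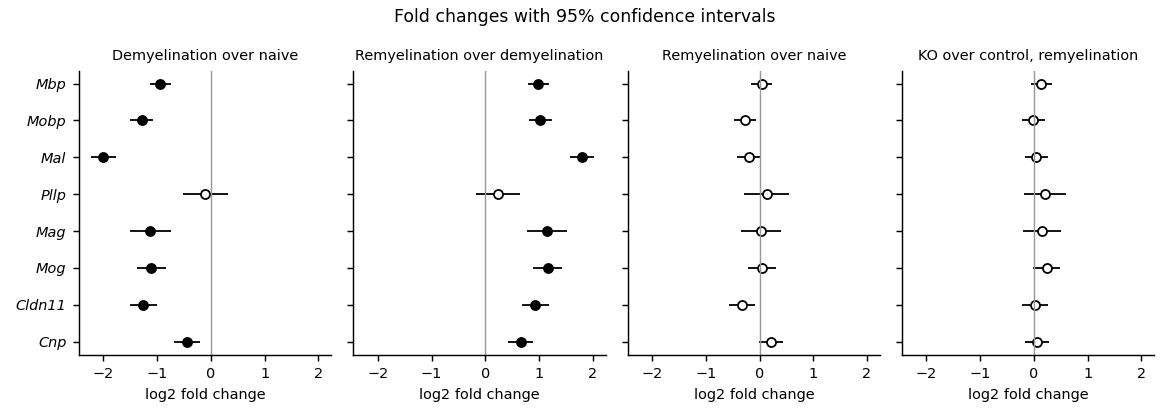
Log2 fold changes (horizontal axis) of the 8 genes with 95% confidence intervals in 4 comparisons, with filled points for an edgeR adjusted p below 0.05 and open points otherwise. Of the 8 genes, 7 are filled below 0 for demyelination over naive and 7 above 0 for remyelination over demyelination, and all are open in the other 2 panels.

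Deletion of TNFR1 in microglia was compared with its control at the same stage. In knockout over control remyelination libraries, no member passed the edgeR test, no member had an unadjusted p below 0.05 (7.49% of the genes tested did), and DESeq2 called 0 of the 8. Of the genes tested, 0.0402% were called higher and 0.00805% lower. The median log2 fold change was 0.10 over the members and 0 over all genes tested. Mog had the lowest p of the 8, with 65.7, 89.4 and 117 CPM in knockout libraries and 58.7, 80.9 and 88.8 CPM in control libraries. Of the 7 knockout libraries, 4 lay above every control library, and the log2 fold change was 0.24 (interval −0.01 to 0.49, edgeR adjusted p = 0.674).

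Mbp averaged 3488 ± 531 CPM in knockout and 3159 ± 336 CPM in control remyelination libraries (SD, n = 7 each), a log2 fold change of 0.14 (interval −0.05 to 0.34, edgeR adjusted p = 0.749). Knockout library 1 held the lowest Mbp value of its group, 2440.5 CPM, and the highest Mag value, 406 CPM. Mag averaged 244 ± 78.2 CPM in knockout and 219.7 ± 71.5 CPM in control libraries, a log2 fold change of 0.15 (interval −0.21 to 0.51). Without knockout library 1 and naive library 1, the log2 fold change of Mag was −0.01 and that of Mbp was 0.21 (edgeR adjusted p = 0.987 and 0.385).

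The fold changes of Mobp, Mal, Cnp and Cldn11 lay between −0.01 and 0.05, and their intervals between −0.22 and 0.28. Mal, for example, had 212, 241 and 264 CPM in knockout and 213, 229 and 277 CPM in control libraries. Pllp had 12.1, 18.4 and 30.4 CPM in knockout and 13.0, 16.9 and 19.1 CPM in control libraries, a log2 fold change of 0.20 with an interval from −0.19 to 0.59. No ratio to Mbp had an exact permutation p below 0.05, the lowest being 0.453 for Mobp. Without knockout library 1, the Mal ratio had a difference of −0.19 (exact permutation p = 0.0408).

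Both genotypes in remyelination thus stood above the demyelination group, in comparisons that share the demyelination libraries. Knockout over demyelination also called 7 of the 8 members higher by the edgeR test, where 0.370% of the genes tested were called higher and 0.233% lower, but genotype and stage both differ there. The log2 fold changes were 1.84 for Mal, 1.40 for Mog, 1.31 for Mag, 1.13 for Mbp, 1.02 for Mobp, 0.95 for Cldn11 and 0.71 for Cnp. Groups did not overlap for 6 of the 8, against 0.241% of the genes tested. Pllp stood at 0.44 (interval 0.03 to 0.84, edgeR adjusted p = 0.416). Knockout over naive called none of the 8, with 1.54% of the genes tested called higher and 1.71% lower. At an unadjusted p below 0.05 there were 4, where 18.9% of the genes tested had such a p: Mog (0.29) and Cnp (0.27) above naive and Mobp (−0.27) and Cldn11 (−0.31) below, and DESeq2 called 0.

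Genes outside the 8 whose log2 CPM followed the members' mean closely over the 28 libraries included Prr18, Prr5l, Desi1 and Opalin. Their Pearson r was 0.906, 0.848, 0.814 and 0.8, in that order. The libraries share 4 group means, and once those were taken out the r was 0.372 for Prr18, 0.164 for Prr5l, 0.356 for Desi1 and −0.006 for Opalin. Prr18 had 45.6 ± 5.72 CPM in demyelination and 119 ± 9.02 CPM in naive libraries (SD, n = 7 each), a log2 fold change of −1.39 (edgeR adjusted p = 2.34e-12). In remyelination Prr18 was still below naive, at 86.5 ± 12.7 CPM (log2 fold change −0.46, edgeR adjusted p = 0.0142). Among the members the r to their own mean was highest for Mal, at 0.96, and lowest for Pllp, at 0.361. That mean includes each member, and members with larger changes weigh more in it. With the group means taken out, the r ranged from 0.016 for Mobp to 0.745 for Mog. It was then 0.183 for Mal and 0.349 for Pllp.

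A list of 48 other genes of myelin and the oligodendrocyte lineage, of which 47 were tested, gives the setting. How far other cells express these genes was not tested. It covers sheath membrane, lipid synthesis, cytoskeleton and lineage factor genes and is not complete. Like the members, it was chosen with earlier results of these data known. At the peak of demyelination, 17 of the 47 were lower and 1 was higher than in naive brain, with a median log2 fold change of −0.39. The largest decreases were in Ppp1r14a (−1.80), Opalin (−1.79), Anln (−1.79) and Adamtsl4 (−1.74), and the gene that rose was Trf, which encodes transferrin (0.49, edgeR adjusted p = 0.025). Opalin encodes a membrane protein of oligodendrocytes, and Anln the actin-binding protein anillin. In remyelination over demyelination 9 of the 47 were higher and none lower, with a median of 0.33, among them Ppp1r14a (1.73), Opalin (1.31) and Ugt8a (0.99), the enzyme that makes galactosylceramide.

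In knockout over control remyelination none of the 47 passed the edgeR test (1 at an unadjusted p below 0.05, none by DESeq2), with a median of 0.07. In remyelination over naive 1 was higher, Apod (0.66, edgeR adjusted p = 8.87e-05), which encodes a lipid-binding apolipoprotein. In knockout over naive 2 were higher, Gsn (0.58) and Apod (0.50), and 3 were lower, Anln (−1.10), Ermn (−0.75) and Gpr37 (−0.51). In knockout over demyelination 11 were higher, among them Adamtsl4 (1.84), Ppp1r14a (1.61) and Opalin (1.45).

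**Figure D4:**
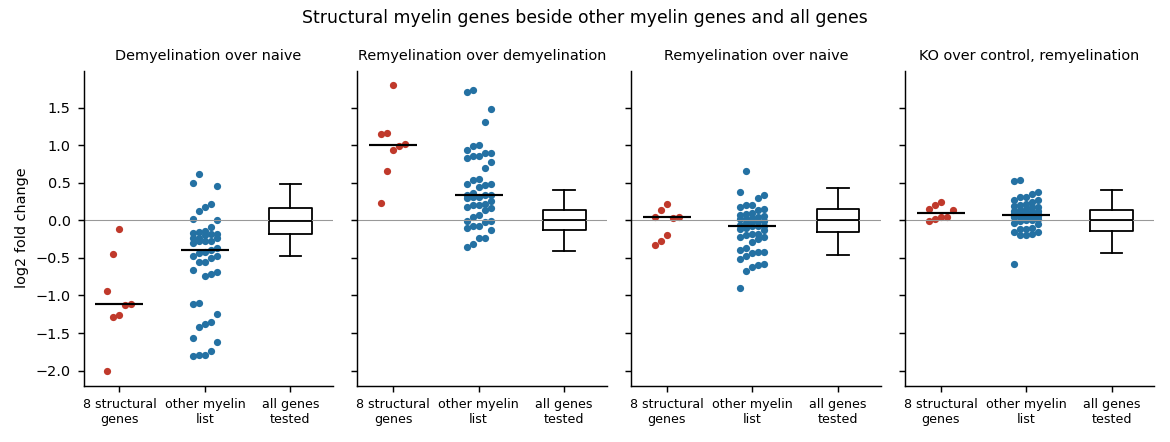
Log2 fold changes (vertical axis) of the 8 structural genes and the other myelin list as points with a line at the median, beside a box of all genes tested with its median, quartiles and whiskers at the 5th and 95th percentiles, in 4 comparisons. For demyelination over naive the structural genes have a median of −1.12, the other myelin list −0.39 and all genes −0.01.

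Markers of other cells were measured in the same libraries. The summed level of 5 microglia markers was 278 to 381 CPM of library totals in demyelination and 133 to 176 CPM in naive libraries, and 5 of 5 were called higher. In remyelination it was 199.7 to 249 CPM in knockout and 226 to 306 CPM in control libraries, where 1 of the 5, Cx3cr1, was called lower. Cx3cr1 is also the gene from which Cre is driven in the knockout, and it is part of the sum. Between these genotypes it is therefore not a neutral marker, and an effect of the construct on its level was not tested. The part of these shifts in the members' values was not tested. No marker of neurons, astrocytes, oligodendrocyte precursors, newly formed oligodendrocytes, cerebellar neurons or endothelium was called by the edgeR test in any of the 6 comparisons, with 5 markers tested for each. Per list and comparison, at most 4 of the 5 had an unadjusted p below 0.05, and DESeq2 called at most 1, in neurons and in astrocytes. The 4 were cerebellar neuron markers in remyelination over naive, where 10.4% of the genes tested had such a p. That list had a median log2 fold change of −0.27 and summed to 399 to 471 CPM in remyelination and 414 to 583 CPM in naive libraries. Its bearing on the members' values was not tested. Oligodendrocyte precursor markers summed to 309 to 388 CPM in demyelination and 225 to 387 CPM in naive libraries. Those of newly formed oligodendrocytes summed to 330.3 to 417 CPM in demyelination and 262 to 386 CPM in naive libraries. Of these 5 newly formed oligodendrocyte markers, 3 had an unadjusted edgeR p below 0.05 in demyelination over naive, and 3 in remyelination over naive. Their median log2 fold changes were 0 and −0.06, in that order. Markers of Schwann cells, which make the myelin of peripheral nerve and share Mbp and Mag with oligodendrocytes, stayed at 17.7 to 35.5 CPM in every group. Of these, Pmp2 was at 0 in demyelination, knockout and control remyelination libraries, and Prx in demyelination and naive libraries. Choroid plexus markers summed to 753 to 1303 CPM in demyelination and 489.8 to 981 CPM in naive libraries, and to 699.8 to 1276 CPM in knockout and 432 to 964 CPM in control remyelination libraries. Of the 3 tested, 1 passed in a single comparison, Ttr, which was higher in knockout than in naive libraries.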

How the data were processed

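Whole-brain 3′ mRNA libraries (TRIzol RNA, QuantSeq FWD kit, per the labels' protocols) were analysed as 28 samples in 4 groups of 7. The expected counts deposited by the authors, 1 table per library, are RSEM estimates of reads per gene and are not normalised, per the file headers. The build GRCm39 and the tools edgeR, RSEM, STAR, cutadapt and FastQC are listed in the submitters' processing notes. For versions, settings and annotation, nothing is stated there. The tables' transcript length column, another value the authors deposited, served for a single observation, chosen after its values were seen.

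Expected counts were rounded to whole numbers (96.59 to 97.69% per library were whole within 0.005). Symbols came from GENCODE M21 (GRCm38) by identifier and matched 52081 of 55414 genes. Genes without a symbol held 10.76% of all counts and stayed in the library totals. Counts were filtered with filterByExpr, TMM-normalised and tested with the edgeR 4.0.16 quasi-likelihood test (R 4.3.3) in a single fit of 28 libraries, with Benjamini-Hochberg adjustment over 12423 genes and calls below 0.05. CPM values are TMM-scaled, except the summed marker levels, which use library totals. The common biological coefficient of variation was 19.5%. Replicate libraries differed beyond counting noise (lowest chi-square per degree of freedom 2.6). Floors cover counting error only.

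All 8 members are named. The 6 genes closest in pattern and, per direction and comparison, up to 4 called genes of the other myelin list follow fixed rules, except that some genes these rules pick are not reported here, and Trf, Apod, Cx3cr1 and Ttr are named as sole calls. Members and lists were chosen with earlier results of these data known. Alternatives were library totals, DESeq2 1.42.0, no filter, 2 groups only, a replicate block, genes without a symbol left out, naive 1 and knockout 1 left out together (for the ratios, chosen after seeing the data), each library left out, and pseudocounts of 1 and 0.1 for the ratios.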

Additional observations from a re-analysis of the deposited data

Results flagged for a closer look

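Each of the 8 members was checked in each of the 4 groups of 7, 32 groups in all, for a library far from the others, and chance alone marks about 1 in 20 such groups. Naive library 1 had the lowest Mbp value of its group, 2424 CPM, where the next lowest was 3039 CPM. Knockout remyelination library 1 had the highest Mag value of its group, 406 CPM, where the next highest was 271 CPM.

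The transcript length column of the deposited tables, which is the mean length of a gene's isoforms weighted by their estimated shares, was not used in any comparison above. For Mbp its median was 2108.0 bases in demyelination libraries (range 2095.9 to 2118.3) and 2092.8 bases in naive libraries (range 2089.7 to 2095.3). These ranges did not overlap. This held for no other member, and Mbp was picked for it once the values were seen, so the lack of overlap is not a separate result. How often it occurs among all genes was not counted. As stated above, the tags do not tell the splice forms of Mbp apart, so the isoform shares behind this length are uncertain. The median moved further for Mal, at 962.1 bases in demyelination (range 801.2 to 1013.0) and 809.6 bases in naive libraries (range 728.4 to 840.4), but with overlap. For Mbp the range was 2087.0 to 2096.8 bases in knockout and 2085.6 to 2099.9 bases in control remyelination libraries. The column was looked at after the values were seen and was not tested.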

How the results depend on the processing

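No called fold change of a member changed sign under any alternative. The number of members called was 6 or 7 lower for demyelination over naive, 7 higher for remyelination and for knockout over demyelination, and 0 in either direction for the other 3 comparisons under every alternative run. Cnp in demyelination over naive was the only member to lose its call, in 6 of its 21 alternatives. With the libraries left out in turn its log2 fold change ranged from −0.54 to −0.39 (edgeR adjusted p 0.00243 to 0.07).

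Whether the replicate numbers pair the samples is not settled. Correlations of same-numbered libraries, taken on deviations from group means, ranged from −0.25 to 0.52 over the pairs of groups. The median per pair of groups was −0.04 to 0.14. The single fit of 28 libraries did not use the numbers. With the number as a block, all-gene calls lower were 140 for demyelination over naive (87 without), 74 for remyelination over naive (22) and 354 for knockout over naive (212). A sign-flip test by replicate block gave 3 ratios to Mbp with p below 0.05 for demyelination over naive (5 without) and 1 for remyelination over naive (3).

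Counts over all genes moved more. Without a filter, remyelination called 42 lower over naive and 39 lower over demyelination (23), knockout over control 17 higher (5) and 11 lower (1), and knockout over demyelination 102 higher (46) and 61 lower (29). DESeq2 called 73 lower for remyelination over naive, 38 lower for remyelination over demyelination, and 9 higher and 2 lower for knockout over control. Library totals gave 0 lower for knockout over control and 105 lower for knockout over naive, and fits of 2 groups 0 lower for knockout over control. Without naive 1 and knockout 1 together, knockout over naive had 364 lower, and 1 ratio to Mbp, that of Mal, was below 0.05 for knockout over control (0 with them).

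With each library left out in turn, genes called lower ranged from 50 to 128 for demyelination over naive, 15 to 90 for remyelination over naive, 13 to 31 for remyelination over demyelination, 0 to 1 for knockout over control, 59 to 404 for knockout over naive and 11 to 25 for knockout over demyelination. Genes called higher for knockout over naive ranged from 87 to 332, the highest without knockout library 1. Ratios to Mbp below 0.05 ranged from 1 to 3 for remyelination over naive and 0 to 1 for knockout over control. The cause of these shifts was not tested. At 18 to 87 counts per library, Pllp is the member whose precision depth limits most.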
